A study of Homo sapiens with 36 samples.

Results

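HEK293T cells that express wild-type (WT) TXNL1 were compared with cells that express its SxxS mutant, in which the catalytic cysteines of the thioredoxin domain are replaced by serines, both exposed to 600 µM hydrogen peroxide (H2O2) for 6 h. The comparison rests on 6 of the 36 RNA sequencing libraries of the study, 3 labelled WT H2O2 and 3 labelled SxxS H2O2, chosen by their labels and by no measured value. The study sequenced 4 lines, each untreated or exposed to arsenite or H2O2, in 12 groups of 3 replicates. HEK293T is an established human embryonic kidney line. All 4 lines carry a CRISPR knockout of TXNL1, made by growing clones from single sorted cells, so that the controls share the deletion and results may hold for a clone only. TXNL1 was returned by a lentiviral vector with a CMV promoter and puromycin resistance, as WT, as SxxS or as D162R R234D (DR-RD in the labels), a mutant deficient in proteasome binding, and the fourth line carried no TXNL1 cDNA. WT and SxxS cells without an oxidant, which the labels give as DMSO and the study's methods as untreated, serve as the unexposed background and are called untreated here. Cells were treated in triplicate in six-well plates, so p-values measure only the spread between these samples, which may be technical. In such bulk samples, fewer cells of a kind and less RNA per cell cannot be told apart.

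TXNL1 joins a thioredoxin domain to a PITH domain. The thioredoxin domain holds a CxxC motif whose paired cysteines pass between a reduced and a disulfide form while reducing other proteins. The PITH domain binds the regulatory particle of the 26S proteasome near the deubiquitylase PSMD14. Hydrogen peroxide oxidizes protein thiols, damages DNA and, in many human cells, raises targets of NRF2, p53 and ATF4 and slows entry into mitosis.

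The stretch of the TXNL1 coding sequence that carries the compared change is shown so that the altered codons can be seen. It is the reference sequence of transcript ENST00000217515.11 on the minus strand of chromosome 18 (GRCh38, GENCODE release 44). The first 23 bases lie in exon 1 (chr18:56638343-56638365) and the next 37 in exon 2 (chr18:56626421-56626457) of 8 exons. Capitals mark the cysteine codons 34 and 37 of the 289-codon reading frame, the positions that SxxS changes to serine.

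TXNL1, codons 34 and 37 in capitals: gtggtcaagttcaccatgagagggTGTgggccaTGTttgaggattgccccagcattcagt

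TXNL1 mRNA was present at similar levels in both lines. The levels are CPM, a gene's count scaled to a common library size with TMM (trimmed mean of M-values) factors. Under H2O2, TXNL1 stood at 54.7, 53.9 and 57.7 CPM in WT replicates 1, 2 and 3 and at 58.4, 63.0 and 63.2 CPM in the SxxS replicates. Every SxxS library was above every WT library, although the gap at its narrowest, between 58.4 and 57.7 CPM, was smaller than the spread within either line. The log2 fold change of WT over SxxS was -0.15 ± 0.06 (SE), with adjusted p = 0.284 in edgeR (quasi-likelihood test, Benjamini-Hochberg), and -0.13 ± 0.06 (adjusted p = 1.00) without WT replicate 2. In untreated cells the values were 53.1, 52.1 and 58.0 CPM for WT and 55, 53.6 and 51.7 CPM for SxxS, which overlap. The vector line under H2O2 held 31.2, 30.8 and 32.2 CPM, so reads assigned to TXNL1 remain without a TXNL1 cDNA and the total in the other lines is not the transgene alone. H2O2 raised TXNL1 by 0.20 ± 0.05 on the log2 scale in SxxS cells (adjusted p = 0.0449 without WT H2O2 replicate 2 in the fit and 0.0848 with it) and by 0.05 ± 0.06 in WT cells (adjusted p = 0.837). The difference between these responses did not pass the test (-0.16 ± 0.08, adjusted p = 0.732).

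WT replicate 2 stood apart from its replicates over much of the transcriptome, and the comparisons are given with and without it. Totals ran from 52797705 to 107763112 counts over the 6 libraries, and WT replicate 2 was the deepest. Over 15674 genes with a mean of at least 1 CPM, the SD of log2 (CPM + 1) around the group median was 0.54 in this library, 0.48 in WT arsenite replicate 1 and 0.06 to 0.16 in the other libraries of the series. Among 10223 genes with a mean of at least 10 CPM in WT H2O2, it lay over 2-fold above the mean of replicates 1 and 3 for 133 genes and over 2-fold below it for 762. Replicates 1 and 3 differed from each other by over 2-fold for 2 genes. The HEK293 markers NEFL, NEFM, INA, PAX2 and VIM summed to 536.5 to 690.9 CPM over the 6 libraries, of which VIM, which fibroblasts express too, made up most. Mean levels were 552.2 CPM for VIM, 24.2 for INA, 2.29 for NEFL, 0.489 for PAX2 and 0.12 for NEFM, so the neuronal and renal markers other than INA were low. The summed level was 3.74 to 6.48 CPM for blood, 14.5 to 19.3 CPM for fibroblast and at most 0.316 CPM for liver markers. Keratinocyte markers reached at most 0.0168 CPM and endothelial markers 0.260 CPM.

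The deviation of this library followed transcript length and base composition. Its median deviation from replicates 1 and 3 was 0.45 on the log2 (CPM + 1) scale in the second decile of transcript length and -0.66 in the decile of the longest transcripts. By GC content it rose from -0.41 in the lowest decile to 0.40 in the highest. The deviations of the SxxS libraries stayed within -0.07 to 0.09 in every decile. The rank correlation of the deviation was -0.525 with length and 0.454 with GC content, and its Pearson correlation with the deviation of WT arsenite replicate 1 was 0.925. These are descriptions over 15674 genes that share their libraries, without a p-value.

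**Figure D1:**
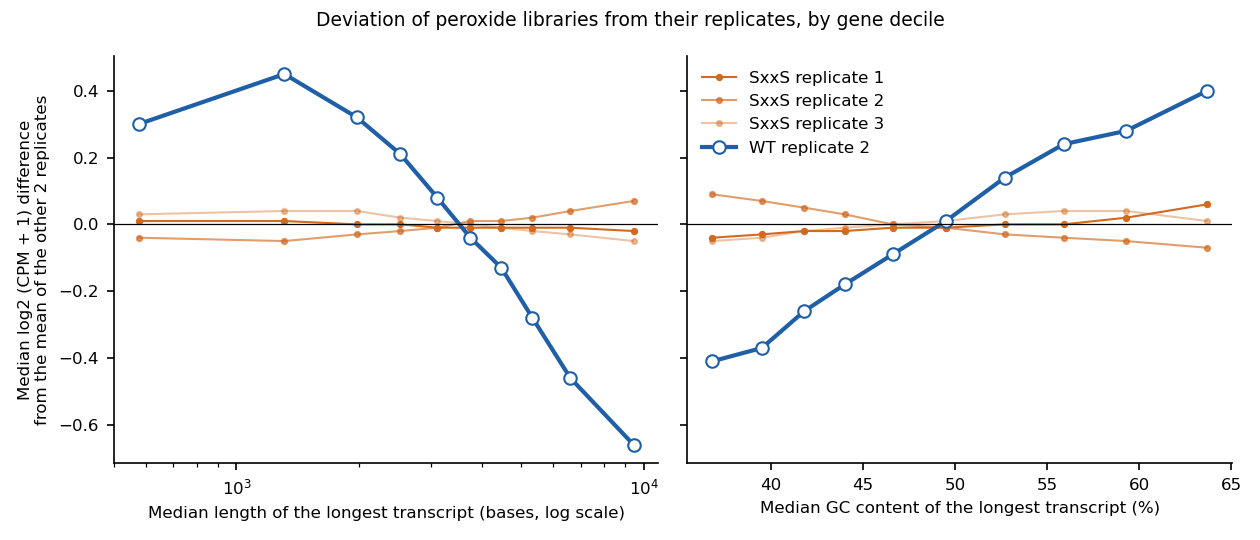
Median deviation of a peroxide library from the mean of the other replicates of its group (vertical axis, log2 (CPM + 1)) by decile of transcript length (left, bases, log axis) and of GC content (right, percent). WT replicate 2 (open circles) runs from 0.45 to -0.66 along length and from -0.41 to 0.40 along GC content, while the SxxS libraries lie near 0.

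Individual genes show the size of the gap. NCR3LG1, the ligand of the natural killer cell receptor NKp30, had 53.2, 6.02 and 53.4 CPM in WT replicates 1, 2 and 3. SMG1, a kinase of nonsense-mediated mRNA decay that has near-identical pseudogene copies among which reads can be split, had 107.7, 22.7 and 89.3 CPM. On the other side, the nuclear RNA MALAT1 had 20.6, 67.6 and 18.3 CPM, and the zinc-binding metallothionein MT2A had 12.5, 32.9 and 13.5 CPM. In each of these genes replicates 1 and 3 lie together and replicate 2 is alone. Across the SxxS replicates SMG1 had 85.2, 102.8 and 80.5 CPM and MALAT1 17.6, 22.8 and 20.9 CPM, within the range of WT replicates 1 and 3 or close to it.

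With all libraries, 13 of 22486 tested genes (0.0578%) differed between WT and SxxS under H2O2 in edgeR, where a call is an adjusted p below 0.05, 12 higher and 1 lower in WT. Without WT replicate 2, 0 genes were called (0%), with 935 at an unadjusted p under 0.05 (4.16%), against 11 called by DESeq2 and 90 by limma voom with sample quality weights. From all libraries, leaving out SxxS replicate 2 or 3 gave 0 calls as well, with 1802 and 2556 genes at an unadjusted p under 0.05, while leaving out SxxS replicate 1 gave 37 and leaving out WT replicate 1 or 3 gave 364 and 289. The median log2 fold change of the 12 higher genes was 0.75 (range 0.31 to 1.56) with the library and 0.57 (0.25 to 1.31) without it, and all 12 stayed higher in WT. Of the 13 genes, DESeq2 called 6 and limma voom 13 without the library. Groups that did not overlap were common at this sample size: among 15524 genes with a mean of at least 1 CPM, WT lay wholly above SxxS for 7.08% and wholly below for 4.89% with the library, and for 12.8% and 11.4% without it. The median half-width of the 95% interval of the log2 fold change was 0.205 over 10212 genes of at least 10 CPM with the library and 0.185 without it. Without it, the interval lay inside a 2-fold change in both directions for 99.8% of these genes.

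CBR1-AS1, a long non-coding RNA antisense to the carbonyl reductase gene CBR1, had 22.2, 27.9 and 23.1 CPM in WT and 17.7, 15.6 and 15.4 CPM in SxxS cells under H2O2 (chr21:36069642-36126640). The WT libraries were all higher and did not overlap the SxxS libraries. Its log2 fold change was 0.59 ± 0.10 (SE, edgeR adjusted p = 0.0165) and 0.48 ± 0.10 without WT replicate 2 (adjusted p = 0.165). In untreated cells the order was turned, with 15.1, 14.5 and 14.8 CPM in WT and 21.6, 23.4 and 21.1 CPM in SxxS cells (-0.57 ± 0.09, adjusted p = 0.00296). The change in this difference between untreated and treated cells was 1.06 ± 0.13 (adjusted p = 8.47e-05). ENSG00000289001, a non-coding gene on the opposite strand inside the same locus and called as well, had nearly the same profile (20.4, 25.9 and 21.1 CPM against 16.3, 13.9 and 14.1 CPM). The library kit keeps strand, but whether the counting used it is not given in the sources used here, so reads of these overlapping genes cannot be told apart.

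CDKN2B-AS1 (ANRIL), the non-coding RNA of the CDKN2A-CDKN2B locus that encodes inhibitors of cell cycle kinases, had 19.6, 29.3 and 23.0 CPM in WT and 14, 9.50 and 7.64 CPM in SxxS cells (chr9:21994139-22128103). All WT libraries lay above all SxxS libraries. Its log2 fold change was 1.21 ± 0.22 (edgeR adjusted p = 0.0326) and 1.04 ± 0.23 without WT replicate 2 (adjusted p = 0.186). Untreated cells again had the opposite order, 11.2, 8.19 and 10.1 CPM in WT against 23.2, 25.6 and 19.0 CPM in SxxS cells (-1.20 ± 0.21, adjusted p = 0.00843), and the change in the difference was 2.25 ± 0.31 (adjusted p = 0.000249). CDKN2A, which overlaps it and is named after its values were seen, had 125.7, 205.5 and 139.6 CPM in WT and 101.3, 81.4 and 81.0 CPM in SxxS cells (0.59 ± 0.17 without replicate 2, adjusted p = 0.48). CDKN2A followed the order of CDKN2B-AS1 in both conditions, with 71.5 to 82.6 CPM in untreated WT and 124.5 to 160.8 CPM in untreated SxxS cells. As whether counting used strand is not given, reads of CDKN2A and CDKN2B-AS1 cannot be told apart.

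Among the protein-coding genes called with all libraries, UTS2R, the receptor of the vasoactive peptide urotensin, had 12.4, 13.2 and 13.4 CPM in WT and 10.7, 9.91 and 9.10 CPM in SxxS cells. Its replicates were tight and WT replicate 2 lay between the other WT libraries, yet the adjusted p moved from 0.0326 to 0.165 while the log2 fold change moved from 0.40 to 0.39. TMEM259 (membralin), a membrane protein of endoplasmic reticulum degradation, had 149.4, 203.4 and 151.3 CPM in WT against 128.6, 114.7 and 115.5 CPM in SxxS cells, and its log2 fold change fell from 0.49 ± 0.09 (edgeR adjusted p = 0.0342) to 0.33 ± 0.08 (adjusted p = 0.289) when replicate 2 was left out. Here replicate 2 was the outer value of its group. GARIN5A, a Golgi-associated RAB2 interactor, had 6.90, 8.06 and 7.73 CPM against 4.18, 2.71 and 2.99 CPM (1.20 ± 0.24, adjusted p = 0.0445, and 1.16 ± 0.25, adjusted p = 0.186, without replicate 2). TMEM259 overlaps the called non-coding gene ENSG00000274177, and GARIN5A overlaps EMC10.

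JHY, a gene needed for ependymal cilia in mice, was the 1 gene called lower in WT. It had 2.97, 3.45 and 3.47 CPM in WT and 4.69, 4.82 and 4.82 CPM in SxxS cells, with no overlap and with replicate 2 beside replicate 3. The log2 fold change was -0.53 ± 0.10 (edgeR adjusted p = 0.0326) and -0.57 ± 0.11 without replicate 2 (adjusted p = 0.165). Untreated WT cells had 4.25, 3.82 and 4.47 CPM and untreated SxxS cells 4.84, 4.21 and 4.24 CPM, which overlap. The difference between the conditions did not pass the test (-0.49 ± 0.15, adjusted p = 0.163). The remaining called genes, given here although their choice followed their values, were PAK4, a kinase of the cytoskeleton (68.7, 80.0 and 72.2 CPM against 63.0, 56.6 and 58.2 CPM), PLEKHH3 (15, 20.2 and 16.6 CPM against 11.9, 11.4 and 11.8 CPM) and the non-coding MADCAM1-AS1, ENSG00000267125, ENSG00000269371 and ENSG00000274177, which had log2 fold changes of 0.66 to 1.31 without replicate 2.

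**Figure D2:**
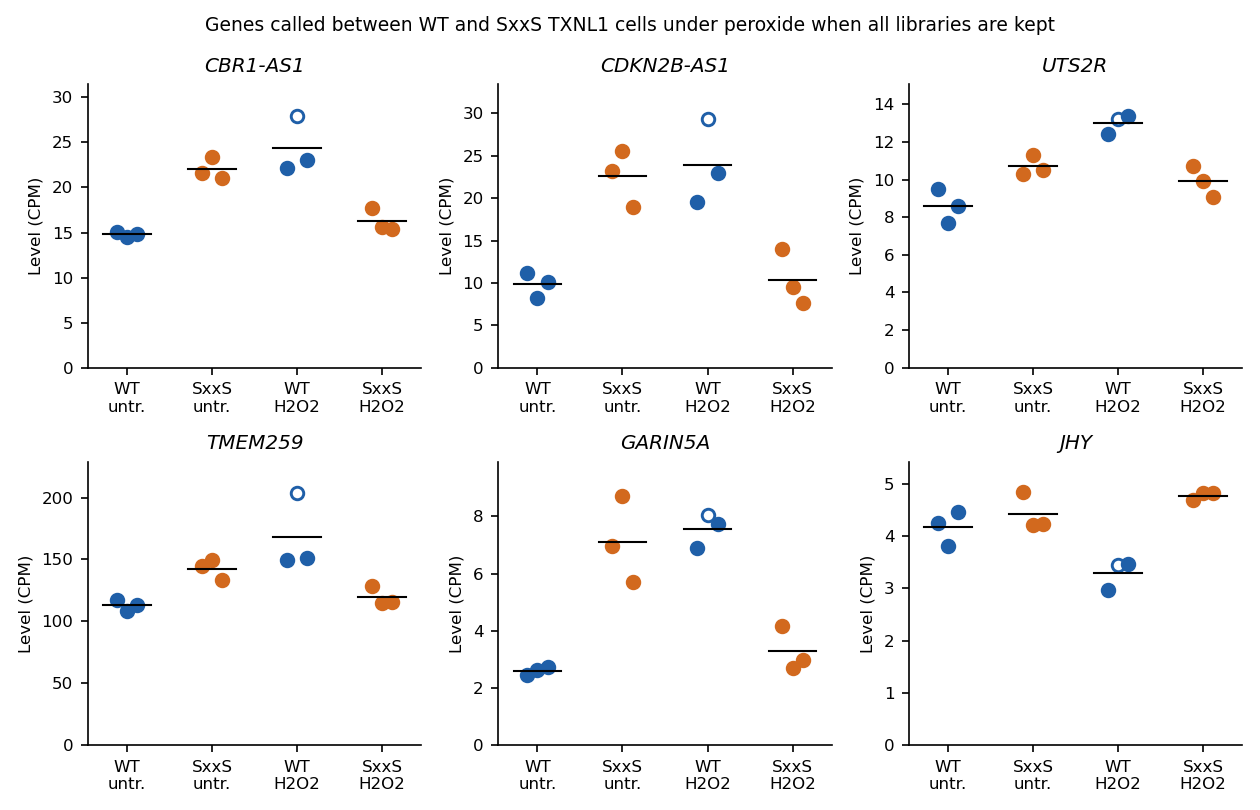
Levels (vertical axis, CPM, from 0) of 6 genes called between WT (blue) and SxxS (orange) cells under H2O2 with all libraries kept, in untreated and H2O2-treated cells; each point is a library, black lines are means of 3 and the open circle is WT H2O2 replicate 2. In the 5 genes higher in WT under H2O2 the order of the lines is turned in untreated cells, and JHY is lower in WT under H2O2.

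The 12 genes that were higher in WT under H2O2 were all lower in WT than in SxxS among the untreated libraries. The fold changes under H2O2 did not use those libraries, but the estimate of spread behind the calls did. With only the compared groups in the fit, 0 of the 13 genes were called with WT H2O2 replicate 2 and 10 without it. The untreated log2 fold changes of the 12 ran from -1.45 to -0.23 with a median of -0.61. Of the 12, 7 were called lower in the untreated comparison, where 86 of all tested genes were called lower (0.382%) and 0 higher, in edgeR without WT H2O2 replicate 2. With that library in the shared estimate of spread, 31 genes were called lower (0.138%). Several of the 12 overlap one another, so they are not 12 separate loci.

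Members of the proteasome list were close to equal once replicate 2 was left out. Of 34 tested proteasome subunits and PITHD1, 0 were called in either fit by edgeR, with 8 at an unadjusted p under 0.05 with the library and 0 without it. With the library 32 of the 34 were higher in WT with a median log2 fold change of 0.22. Without it 11 were higher and the median was -0.01, against a median of 0 over all tested genes in both fits. PSMD4, a ubiquitin receptor of the regulatory particle, had 173.2, 291.5 and 178.9 CPM in WT and 184.1, 169.1 and 188.8 CPM in SxxS cells. Replicate 2 alone carried the higher WT mean of this gene. PSMD14, the deubiquitylase that TXNL1 contacts, had 134.6, 173.7 and 138.7 CPM in WT and 138.0, 142.7 and 145.6 CPM in SxxS cells, with a 95% interval of -0.18 to 0.07 on the log2 scale without replicate 2. PSMD1, a scaffold of the base, had 275.2, 313.3 and 274.0 CPM against 258.6, 273.8 and 265.1 CPM (interval -0.05 to 0.15), and PITHD1, the other PITH domain protein, had 60.5, 80.9 and 61.6 CPM against 57.6, 60.0 and 53.8 CPM (interval -0.07 to 0.26).

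Thioredoxin system and peroxide-reducing enzymes behaved likewise. In this list 0 of 30 tested members were called, 21 were higher in WT with replicate 2 (median 0.17) and 8 without it (median -0.03). The peroxiredoxin PRDX1 had 846.8, 1290.1 and 880.3 CPM in WT and 868.7, 878.5 and 917.7 CPM in SxxS cells. The lipid hydroperoxide reductase GPX4 had 366.6, 715.6 and 379.6 CPM in WT and 365.9, 341.3 and 360.9 CPM in SxxS cells. In both, WT replicates 1 and 3 lay among or near the SxxS values and replicate 2 lay far above them. NRF2 targets had 0 of 18 called and a median of 0.09 with the library and -0.01 without it. Ferritin heavy chain FTH1 had 424.7, 713.8 and 428.6 CPM in WT and 437.7, 433.8 and 429.3 CPM in SxxS cells, and heme oxygenase HMOX1, named after its values were seen, 50.8, 79.7 and 53.4 CPM against 53.8, 54.2 and 56.6 CPM.

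The mRNAs of cytosolic ribosomal proteins, which are short and abundant, shifted with replicate 2 as a whole list. All 46 tested ribosomal protein genes were higher in WT with it (median 0.29) and 5 of 46 without it (median -0.05), with 0 called in either fit. RPS2 had 2865.8, 5319.7 and 3010.7 CPM in WT and 2919.9, 2828.7 and 3003.9 CPM in SxxS cells. The snoRNA host genes had a median of 0.28 with 11 of 11 higher, and of -0.06 with 5 of 11 higher without replicate 2. Neither list passed the test for any member. Heat shock genes (0 of 16 called, median 0.02 and -0.02), unfolded protein response genes (0 of 15, median 0 in both fits), cholesterol genes (0 of 19, -0.01 and 0.01) and replication licensing genes (0 of 21, 0.05 and 0) had medians close to that of all genes in both fits. Metallothionein and zinc genes had 0 of 5 called (0.13 and 0.01), replication-dependent histones 0 of 16 (0.04 and -0.22) and nuclear-retained RNAs 0 of 6 (0.11 and 0.07).

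**Figure D3:**
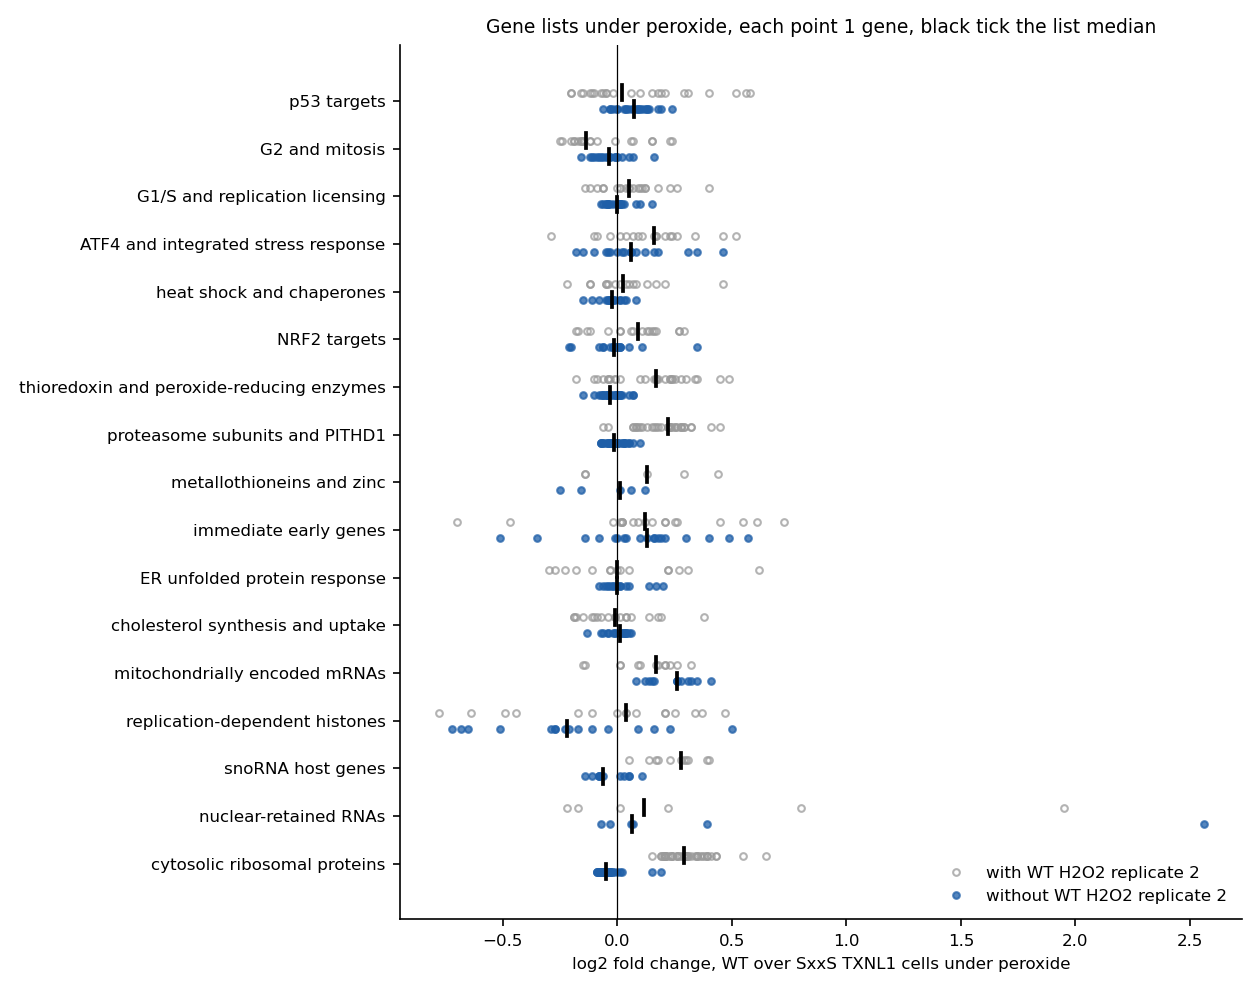
log2 fold change of WT over SxxS under H2O2 (horizontal axis) for each tested member of the gene lists, with WT H2O2 replicate 2 (grey open circles) and without it (blue), and the list medians as black ticks. The ribosomal protein, snoRNA host and proteasome lists sit at medians of 0.29, 0.28 and 0.22 with the library and at -0.05, -0.06 and -0.01 without it. The nuclear-retained RNA farthest to the right, at 2.56, is MEG3, which had a mean of 0.138 CPM over the 6 libraries.

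H2O2 changed members of the mitotic, p53 and ATF4 lists within each line, while no member of these lists was called between the lines under H2O2. Without WT H2O2 replicate 2, 15 of 20 genes of G2 and mitosis were called lower under H2O2 in WT cells (median -0.49). In SxxS cells 16 of 20 were called lower (median -0.44), and 0 were called between the lines under H2O2 (median -0.04). Over all tested genes 0.956% were called lower under H2O2 in WT and 1.19% in SxxS cells. TOP2A, the topoisomerase of chromosome segregation, had 327.0, 284.2 and 336.5 CPM in WT and 347.2, 356.2 and 349.5 CPM in SxxS cells under H2O2, against 421.4 to 431.7 CPM in untreated WT and 424.0 to 429.4 CPM in untreated SxxS cells. Of 24 p53 targets, 7 were called higher under H2O2 in WT (median 0.33) and 5 in SxxS cells (median 0.21). Over all tested genes 2.08% and 0.894% were called higher under H2O2. Between the lines 0 of the 24 were called (median 0.08). CDKN1A, the p53 target that inhibits cyclin-dependent kinases, is named after its values were seen and had 10.1, 14.4 and 13.3 CPM in WT and 9.44, 11.1 and 12.7 CPM in SxxS cells. Of 19 ATF4 and integrated stress response genes, 10 were called higher under H2O2 in WT (median 0.26) and 8 in SxxS cells (median 0.23). Between the lines 0 of the 19 were called (median 0.16 with replicate 2 and 0.06 without it). ATF4 itself had 727.9, 1181.6 and 720.9 CPM in WT and 671.9, 700.2 and 709.4 CPM in SxxS cells. Without replicate 2, 682 of all tested genes were called for the response to H2O2 in WT cells (3.03%) and 469 in SxxS cells (2.09%), and with it 1813 (8.06%) and 229 (1.02%). These responses and the comparison under H2O2 share libraries.

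Mitochondrially encoded mRNAs, which code for subunits of the respiratory chain and ATP synthase, were the pathway list in which every member lay on 1 side without replicate 2. All 13 were higher in WT under H2O2 without it (range 0.08 to 0.41, median 0.26) and 11 of 13 with it (median 0.17), yet 0 were called in either fit, with 4 at an unadjusted p under 0.05 without the library and 2 with it. Summed over the 13, WT replicates 1, 2 and 3 held 9280.9, 6459.5 and 7639.5 CPM. The SxxS replicates held 7409.5, 7885.9 and 6665.2 CPM. WT replicate 3 thus lay within the SxxS range, and only WT replicate 1 lay above it. Under H2O2, MT-CO1, a subunit of cytochrome c oxidase, had 2223.7, 1476.7 and 1844.2 CPM in WT and 1855.9, 1991.6 and 1647.3 CPM in SxxS cells, which overlap. The same 13 were also higher in untreated WT cells, with a median of 0.33 and 0 called by edgeR, 10 of them at an unadjusted p under 0.05. Under arsenite the order was the other way, with 1 of 13 higher in WT, a median of -0.31 and 3 called lower without WT H2O2 replicate 2, where 1.09% of all tested genes were called lower. With that library 0 of the 13 and 0% of all genes were called, with 7 of the 13 at an unadjusted p under 0.05. Mitochondrial reads made up 0.705% to 1.09% of the counts over the 6 libraries. WT arsenite replicate 1, which stood apart from its replicates as well, is part of the arsenite contrast. It held 0.589% mitochondrial reads, against 0.695% and 0.662% in WT arsenite replicates 2 and 3.

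The direct test of whether the difference between the lines changed with H2O2 gave more calls than the difference under H2O2 itself. In edgeR, 337 genes passed with all libraries (1.5%), 333 toward higher WT under H2O2, and 223 without WT H2O2 replicate 2 (0.992%), 220 in that direction. A total of 193 genes were called in both fits, which is 57.3% of the first list and 86.5% of the second, and all 193 had the same direction. Among the 220 genes, the median log2 fold change of WT over SxxS was -0.59 in untreated cells and 0.45 under H2O2, and the median response to H2O2 was 0.62 in WT cells and -0.44 in SxxS cells. The interaction that chose these genes is computed from these differences and responses, so the medians are a description. It requires a larger difference under H2O2 than untreated, not opposite signs. Even so, 0 of the 220 genes were higher in WT than in SxxS untreated, and all 220 were under H2O2. As for the response to H2O2, all 220 were above 0 in WT cells and 4 in SxxS cells. Among genes with a symbol and a mean of at least 1 CPM, the 5 with the smallest p were CBR1-AS1, CDKN2B-AS1, GARIN5A (2.61 ± 0.35, adjusted p = 0.000249), CCDC157, a coiled-coil protein, and the zinc finger gene ZNF503. The non-coding genes ENSG00000289001, ENSG00000245768 and ENSG00000253806, which have no symbol, had adjusted p-values of 8.47e-05, 0.000249 and 0.000249. CCDC157 had 10.9, 10.7 and 12.4 CPM in WT and 9.17, 7.11 and 7.69 CPM in SxxS cells under H2O2, against 6.54 to 7.95 CPM in untreated WT and 11.1 to 13 CPM in untreated SxxS cells (interaction 1.29 ± 0.18, adjusted p = 0.000298). ZNF503 had 176.1, 200.8 and 194.5 CPM against 166.2, 139.7 and 133.5 CPM under H2O2, and 110.1 to 120.7 CPM against 162.8 to 178.0 CPM untreated (0.91 ± 0.13, adjusted p = 0.000298). In both genes the groups of the lines did not overlap in either condition, and their order was turned.

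**Figure D4:**
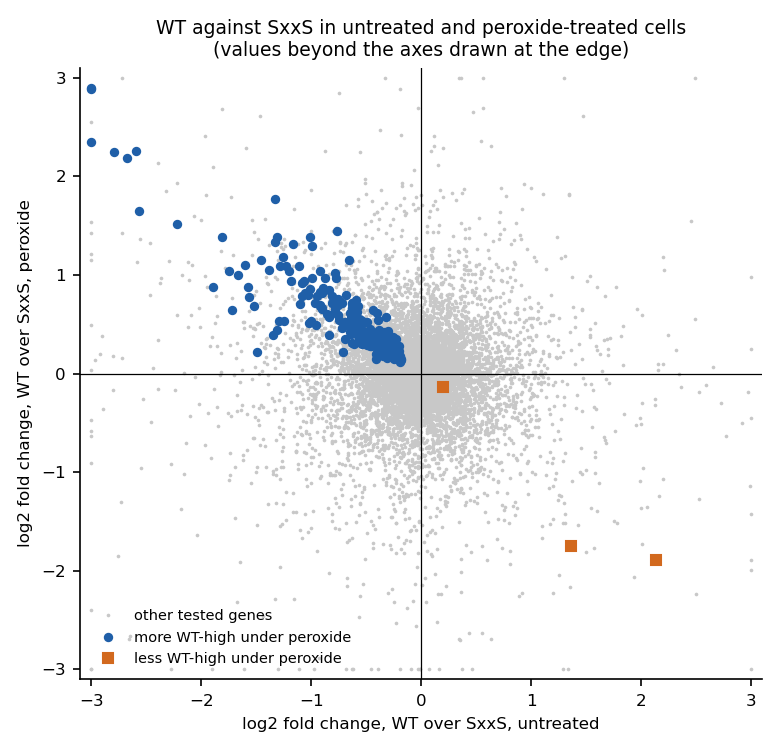
log2 fold change of WT over SxxS in untreated cells (horizontal axis) against the same under H2O2 (vertical axis), without WT H2O2 replicate 2, for each tested gene, with interaction calls in colour; the axes use separate libraries. The 220 genes shown in blue lie at a median of -0.59 untreated and 0.45 under H2O2, values from which the interaction that chose them is computed, and 3 genes were called in the other direction.

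Of the lists, immediate early genes held the interaction calls, 3 of 19 in each fit, against 1.5% of all tested genes with replicate 2 and 0.992% without it. The AP-1 subunits JUN and JUND were called in both, JUNB with replicate 2 only and the zinc finger factor EGR2 without it only. The members did not all move this way: without replicate 2 the interaction was above 0 for 12 of the 19 (median 0.15, range -0.58 to 1.45). JUN had 132.9, 132.4 and 135.9 CPM in WT and 127.8, 114.8 and 105.4 CPM in SxxS cells under H2O2, with WT above SxxS in every library. Untreated cells had 88.0 to 92.9 CPM in WT and 113.6 to 122.1 CPM in SxxS, and the interaction was 0.60 ± 0.11 (edgeR adjusted p = 0.00211 without replicate 2). JUND had 10.8, 15.7 and 12.2 CPM against 8.12, 8.46 and 6.77 CPM under H2O2 and 4.57 to 7.68 CPM against 9.08 to 12 CPM untreated (1.41 ± 0.28, adjusted p = 0.00675). The difference between the lines under H2O2 passed for neither (JUN adjusted p = 0.94, JUND adjusted p = 0.883). In response to H2O2, 8 of the 19 immediate early genes were called higher in WT cells (median 0.51) and 6 in SxxS cells (median 0.13). Over all tested genes 2.08% and 0.894% were called higher, all without replicate 2.

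The genes called for the interaction differed from all tested genes in composition. Over the 223, the median GC content of the transcripts was 63.5% against 48.3% over all tested genes and the median length 1946 against 2767 bases. Long non-coding RNAs made up 30.9% against 21.9%, and 66.4% shared exon sequence with another gene against 57.1%. Over the 337 called with replicate 2, long non-coding RNAs made up 21.4%, no more than over all tested genes. Their median GC content was 63.9%, and 62.8% shared exon sequence. With an offset for GC content in each library 99 genes were called (89 toward higher WT), and among genes without exon overlap 75. By decile of GC content, the median interaction over all genes went from -0.05 in the lowest to 0.20 in the highest, where the difference between the lines had a median of -0.14 untreated and 0.07 under H2O2. GC content and exon overlap moved with the call, and their part in it was not tested. Leaving out WT arsenite replicate 1 as well, which takes no part in the contrast, raised the count to 533. Leaving out a further single library, other than WT H2O2 replicate 1 or 3, gave 118 to 249 calls. The fewest came without SxxS H2O2 replicate 3, and 119 without SxxS untreated replicate 2. Counts without WT H2O2 replicate 1 or 3 are left out of this range, since their group would then hold a single library.

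The vector and D162R R234D lines, which entered the choice of the 220 genes only through the shared spread and the filter, showed smaller shifts. As a mean of log2 (CPM + 1) relative to all 36 libraries, these genes stood at -0.23, -0.37 and -0.33 in untreated WT and at 0.16, 0.34 and 0.22 in WT under H2O2, and at 0.13, 0.26 and 0.11 in untreated SxxS and -0.07, -0.24 and -0.29 in SxxS under H2O2. The vector line had -0.06, 0.19 and 0.12 untreated and 0.04, -0.17 and -0.08 under H2O2. The D162R R234D line had -0.10, 0.07 and 0.15 untreated and 0.10, 0.24 and 0.05 under H2O2. In both of these lines the untreated and treated libraries overlap. No test was made on this mean because the genes were chosen for it in WT and SxxS cells.

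**Figure D5:**
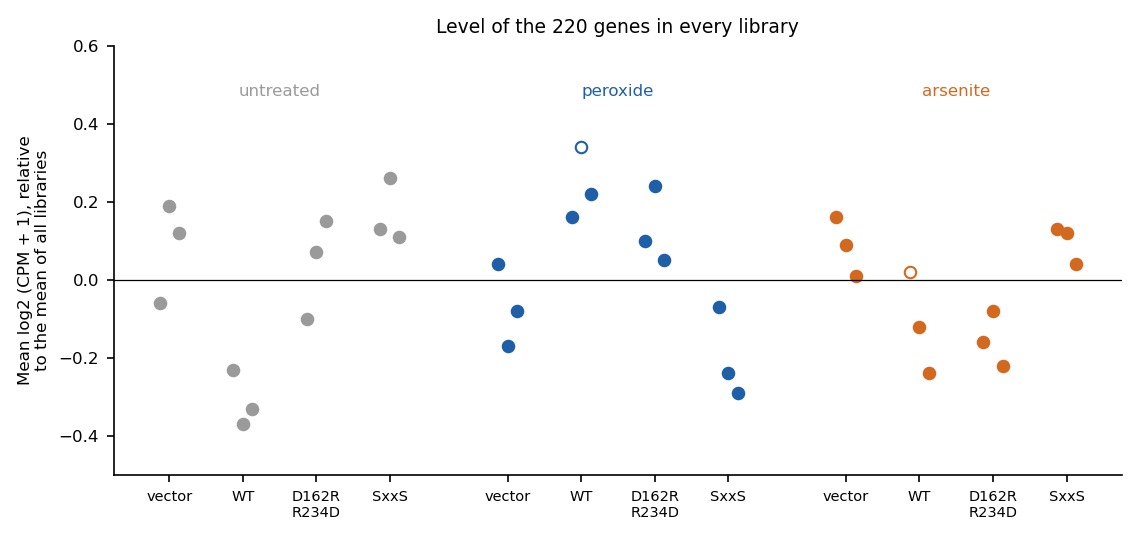
Mean log2 (CPM + 1) of the 220 genes relative to the mean of all 36 libraries (vertical axis) in each library of the 4 lines and 3 treatments; open circles are WT H2O2 replicate 2 and WT arsenite replicate 1. WT and SxxS libraries chose the genes and move in opposite directions between untreated and H2O2, while the vector and D162R R234D libraries overlap between these conditions.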

How the data were processed

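Per the labels and the study's methods, the authors aligned paired reads of 100 bp to GRCh38 with qAlign and deposited raw counts per gene for 36 libraries. The annotation release, versions and use of strand are not given in the sources used here. The deposited table also holds a gene length, which was not used, and 0 sample columns were unmatched. The samples were grouped from their labels, the dose and exposure come from the study's methods, and libraries hold 42072410 to 174119002 counts.

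Of 42726 genes with a count, the 22486 with at least 10 counts over the 3 untreated vector libraries were tested, the study's own filter. Counts were fitted in edgeR 4.0.16 (R 4.3.3) with TMM scaling, 1 mean for each of 12 groups, robust quasi-likelihood dispersions and p-values adjusted by Benjamini-Hochberg over all of them, with a call below 0.05. All 36 libraries share 1 estimate of spread. The second fit leaves out WT H2O2 replicate 2, whose group then has 2 libraries. Contrasts are WT minus SxxS under H2O2, the same untreated, and their difference (the interaction). DESeq2 1.42.0 (named in the submitters' processing notes) and limma 3.58.1 were alternatives, as were other scalings, filters, GC and length offsets, a replicate block and leaving out each library, and the test was tried on simulated data. Symbols, length and GC content come from GENCODE release 44 (99.7% of tested genes). Pairs of replicates of the WT and SxxS H2O2 groups differed beyond counting noise (chi-square over its degrees of freedom 4.951 to 324.3), so each library counts as 1 sample.

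Named genes are TXNL1, PSMD1, PSMD4, PSMD14 and PITHD1; among genes with a symbol and a mean of at least 1 CPM, up to 8 in each direction by fold change called in both fits and up to 5 in each direction by adjusted p called in 1 fit; up to 5 with the smallest p of the interaction; list members called and the 2 most abundant of each list; and up to 5 genes in each direction in which WT H2O2 replicate 2 was farthest from its replicates at 10 CPM or more. Members and lists were chosen with earlier results of these data known.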

Additional observations from a re-analysis of the deposited data

Results flagged for a closer look

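The difference between WT and SxxS cells itself differed between H2O2 and untreated cells by the edgeR interaction test for 337 genes with WT H2O2 replicate 2 and for 223 without it. Among genes with a symbol and a mean of at least 1 CPM, those with the smallest p without that library were CBR1-AS1 (interaction log2 fold change 1.06), GARIN5A (2.61), CDKN2B-AS1 (2.25), CCDC157 (1.29) and ZNF503 (0.91), all in the direction of higher WT under H2O2. In these 5 genes WT lay above SxxS in each library under H2O2 and below it in each untreated library. The interaction that chose these 5 genes is computed from the same libraries, so this order is a description. Groups of 3 libraries were too small for a test of outlying samples, so WT H2O2 replicate 2 is described by its deviation only.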

How the results depend on the processing

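Of the 22486 genes tested under H2O2, 13 were called with WT H2O2 replicate 2 in edgeR. This count was 7 with total counts alone, 4 without a filter, 4 with a GC offset, 4 with a further limit of 1 on the absolute log2 fold change and 0 with only the compared groups in the fit (636 at an unadjusted p under 0.05). It was 217 in DESeq2, 133 in limma voom and 311 without WT arsenite replicate 1. Leaving out 1 library of the contrast gave 0 to 364, with 0 without WT replicate 2, SxxS replicate 2 or SxxS replicate 3, 37 without SxxS replicate 1, and 364 and 289 without WT replicates 1 and 3. Without WT H2O2 replicate 2 the count was 0, against 11 in DESeq2, 90 in limma voom and 8 without a filter. It was 81 with only the compared groups, 3 without WT arsenite replicate 1, and 0 with any SxxS H2O2 replicate left out as well.

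The interaction count of 337 with replicate 2 was 506 in DESeq2, 776 in limma voom, 56 with only the compared groups, 612 without WT arsenite replicate 1, 128 with a GC offset, 149 with the fold change limit, and 176 to 590 with 1 library left out. The count of 223 without replicate 2 was 753 in limma voom, 592 with only the compared groups, 533 without WT arsenite replicate 1, 99 with a GC offset, 121 with that limit, and 93 to 249 with another library left out. The lower end of that last range comes from leaving out WT H2O2 replicate 3 as well. The WT H2O2 group then holds a single library, so no conclusion is drawn from that count. Setting aside the fits without WT H2O2 replicate 1 or 3, the range was 118 to 249. A further pair of alternatives was chosen after seeing the data: a transcript length offset (52 genes under H2O2 with replicate 2) and genes without exon overlap (3 under H2O2 with replicate 2, and 125 and 75 for the interaction). The cause of these shifts was not tested. Whether replicate numbers pair the samples was not settled. Correlations of deviations between same-numbered WT and SxxS libraries were -0.0546, -0.435 and -0.368 under H2O2. These deviations were taken from group means that include WT H2O2 replicate 2, so they cannot decide the question. In untreated cells the correlations were 0.076, 0.0851 and 0.191, against -0.143 to 0.0632 between differently numbered libraries. A replicate block gave 10 and 0 calls under H2O2 and 327 and 216 for the interaction, with and without replicate 2, and with the GC offset the block gave 3 under H2O2 with replicate 2 and 125 and 117 for the interaction. Among the named genes, whose fold change under H2O2 was recomputed under the alternatives, no called one turned its direction. For the interaction and the other comparisons the direction of single genes was not recomputed. At this depth and with 3 libraries a group, the precision is that of the intervals in the report, with a median half-width of 0.205 and 0.185 on the log2 scale.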
